A study of Danio rerio with 2 samples.

Results

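Bmp and Tgf-beta pathway genes were examined in whole zebrafish embryos at 3 days post fertilization. The genes were taken by their symbol in the deposited table: Bmp, Gdf, Tgf-beta and activin ligands, their receptors, Smads, secreted inhibitors of the Noggin, Chordin, Gremlin and follistatin kinds, and Id target genes. The symbols picked 70 of 23809 genes. They were 27 ligands, 17 receptors, 10 Smads, 10 secreted inhibitors, 5 Id genes and bmp2k, a protein kinase that shares the bmp prefix and is not a ligand.

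Ligands of this superfamily are secreted dimers that bring together type I and type II receptor kinases at the cell surface. In general, Bmp and most Gdf ligands act through smad1, smad5 and smad9, and Tgf-beta and activin ligands act through smad2 and smad3. These receptor-regulated Smads join smad4 and enter the nucleus, where the Id genes are common Bmp targets. Secreted proteins such as Noggin trap the ligands, and the inhibitory Smads, smad6 and smad7, are switched on by the pathway and dampen it. In fish embryos the pathway patterns the early body axis and later takes part in the formation of cartilage, joints, fins, eyes, heart and vessels.

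There were 2 libraries of poly-A RNA. The first was made from embryos exposed to the triazole fungicide cyproconazole at 20 µM, starting 4 hours after fertilization, and the second from untreated control embryos. Both groups had the genotype SAGFF(LF)53A mitfab692/+, so the controls, too, were of the SAGFF(LF)53A line and heterozygous for a mutant allele of the pigment cell gene mitfa. RNA of 40 pooled embryos went into each library. With 1 library per group there was no spread between samples and no test: each value below compares these 2 libraries.

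Levels are in FPKM, which scales fragments to transcript length and depth and so allows genes to be compared with each other. Whole reads, recovered from the other columns of the deposited table, summed to 20726353 in genes for cyproconazole and 18067935 for the control. A read ratio is cyproconazole over control after scaling for depth, and the 95% interval after it covers counting error only. A gene was compared when it had at least 50 reads over both libraries and no FPKM of 0. Markers of the whole embryo were present in both libraries, with summed FPKM of 27050 and 25628 for 7 skeletal muscle genes, 538 and 548 for 7 neuron genes and 9793 and 9181 for 6 skin genes in cyproconazole and control.

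Most of the pathway lay close to a ratio of 1. Of the 70 genes, 60 were compared, and on the log2(FPKM + 1) scale none (0) was 1.5-fold or more higher, while 2, the ligands gdf5 and tgfb2, were 1.5-fold or more lower. Among all 18640 genes compared, 1.58% were that much higher and 1.71% that much lower, 3.29% in all, so the share of the pathway genes (3.33%) was near the background. By reads, 4 of the 60 were at least 1.5-fold apart, smad9 and tgfbr1a higher and gdf5 and tgfb2 lower, against 2.86% of all genes higher and 3.13% lower (5.99% in all). The cyproconazole reads were between 80% and 125% of the scaled control reads for 54 of the 60 (90%) and for 80.5% of all genes. Outside that range and with an interval off 1 were 6 of the 60 (13.4% of all genes): smad9, tgfbr1a, bmp7b and smad7 higher (6.64% of all genes) and gdf5 and tgfb2 lower (6.77%). The interval lay wholly above 1 for 12 of the 60 and wholly below 1 for 5, against 15.8% and 14.5% of all genes (30.2% in all). An interval narrows as reads increase, so such shares, here and below, depend on depth as well as on the size of differences. The median log2(FPKM + 1) difference was 0.06 for the pathway genes and 0.02 for all genes, and the median log2 read ratio was 0.08 for the pathway genes and 0.01 for all genes.

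**Figure D1:**
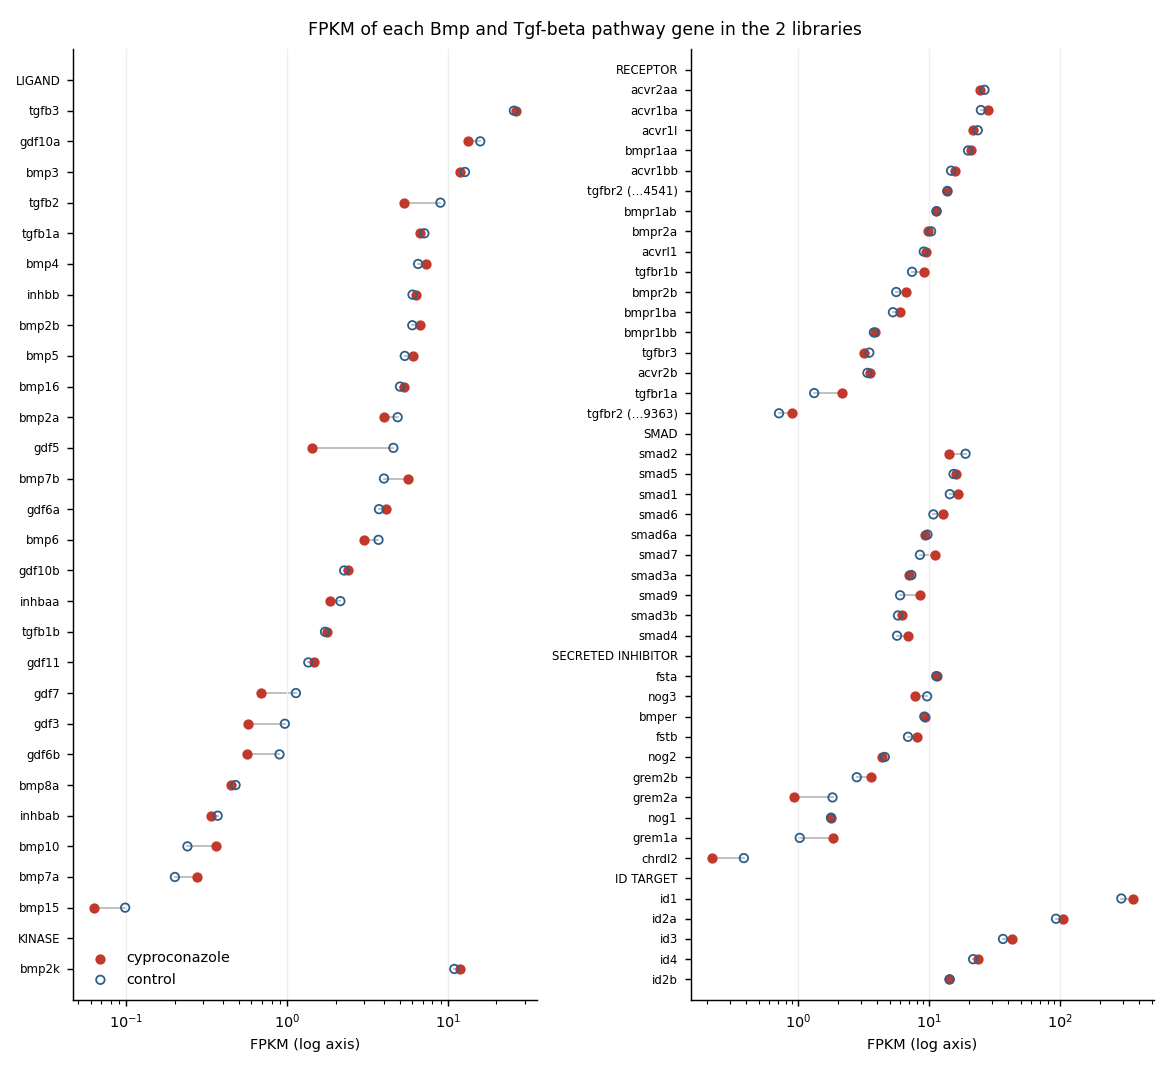
FPKM (log axis) of each of the 70 genes, grouped by role, with filled circles for cyproconazole and open circles for control. Most pairs of circles nearly touch, gdf5 has the longest line among genes above 1 FPKM in both libraries, and id1 is the most abundant gene at 362 and 293 FPKM; the 2 genes named tgfbr2 are told apart by the last digits of their IDs.

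**Figure D2:**
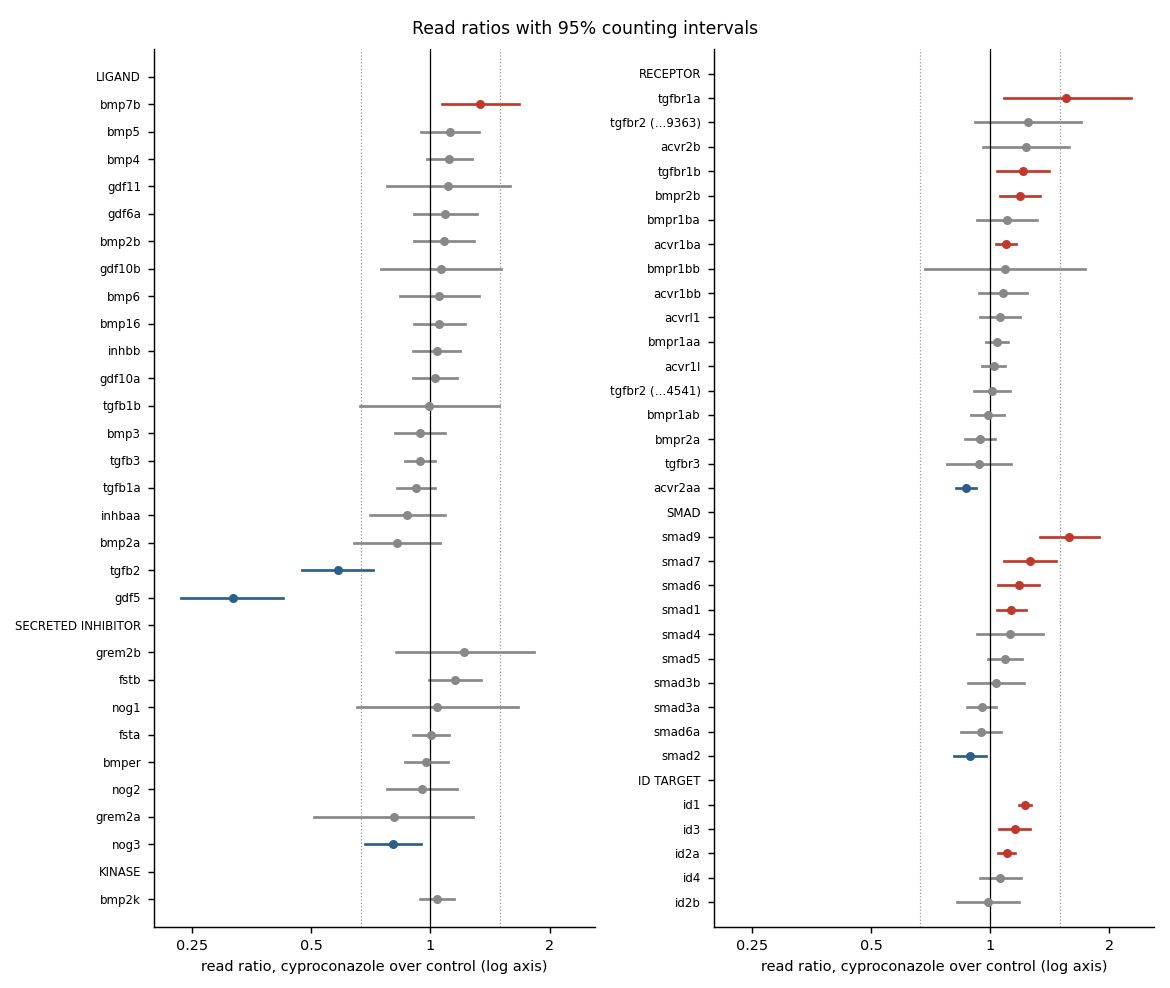
Read ratio of the 60 genes compared (log axis, cyproconazole over control), with bars for the 95% counting interval, red where it lies above 1, blue where it lies below 1 and grey where it covers 1; dotted lines mark 1.5-fold. The 5 blue genes are gdf5, tgfb2, nog3, acvr2aa and smad2, and 43 genes are grey.

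The ligand with the lowest ratio was gdf5 (ENSDARG00000002760), a Bmp-related ligand known for its role in joints and cartilage. It had 1.43 FPKM in the cyproconazole library and 4.58 FPKM in the control, from 64 and 176 reads. Its read ratio was 0.316 (0.234 to 0.423) and its log2(FPKM + 1) difference was -1.20. In RNA of whole embryos, fewer cells of a type and less RNA per cell cannot be told apart. All 12 cartilage markers set beside it had intervals below 1, with read ratios of 0.186 to 0.859 and a summed FPKM of 936 in cyproconazole and 1851 in the control, and none of them was at 0. Of 6 markers of fin fold and tendon, 5 had intervals below 1, with ratios of 0.374 to 0.822 and summed FPKM of 211 and 462. The part of these cells in the gdf5 value was not tested.

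The nearest relatives of gdf5 gave mixed values. The ligand gene gdf6a, which is known in zebrafish for patterning the dorsal eye, had 4.10 FPKM in cyproconazole and 3.73 FPKM in the control, from 266 and 212 reads, with a ratio of 1.09 (0.907 to 1.31). Its interval lay wholly above that of gdf5. Its paralog gdf6b and the related gdf7 were below the minimum of reads. For gdf6b there were 18 reads in cyproconazole and 25 in the control (0.626, 0.322 to 1.19), and for gdf7 18 and 27 (0.580, 0.301 to 1.09). Both intervals cover 1, and both also overlap the interval of gdf5. The Gdf ligands together had 1060 reads in cyproconazole and 1028 in the control (0.896, 0.822 to 0.978), and without gdf5 996 and 852 reads (1.02, 0.926 to 1.11).

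The second low ligand was tgfb2 (ENSDARG00000027087), which encodes a Tgf-beta isoform. It had 5.30 FPKM in cyproconazole and 8.98 FPKM in the control, from 161 and 240 reads. The read ratio was 0.583 (0.475 to 0.715), and the log2(FPKM + 1) difference of -0.66 was just past 1.5-fold. The other Tgf-beta genes were closer to 1. The most abundant ligand of all, tgfb3, had 26.4 FPKM in cyproconazole and 25.7 FPKM in the control, with 1073 and 992 reads (0.940, 0.862 to 1.03). The read ratio was 0.921 (0.825 to 1.03) for tgfb1a and 0.993 (0.665 to 1.49) for tgfb1b. The interval of tgfb2 lay wholly below those of tgfb3 and tgfb1a and overlapped that of tgfb1b.

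Among the Bmp ligands with enough reads to compare, bmp7b had the highest read ratio. It had 5.62 FPKM in cyproconazole and 4.00 FPKM in the control, from 206 and 134 reads, a ratio of 1.34 (1.07 to 1.67). Of the 19 ligands compared it was the only 1 with an interval above 1, and 2, gdf5 and tgfb2, had intervals below 1. The shares of all genes were 15.8% and 14.5%. Its paralog bmp7a, which acts with bmp2b in setting up the dorsal-ventral axis of the early zebrafish embryo, was barely detected, with 21 and 13 reads (1.404, 0.671 to 3.05). The early axis ligand bmp2b had 6.75 FPKM in cyproconazole and 6.00 FPKM in the control (1.08, 0.907 to 1.29), and bmp4, used in many organs, had 7.35 and 6.52 FPKM (1.12, 0.981 to 1.27). For bmp2a the FPKM was 4.00 in cyproconazole and 4.87 in the control (0.824, 0.642 to 1.06). The ratios of bmp3, bmp5, bmp6 and bmp16 were 0.940, 1.12, 1.05 and 1.05, each with an interval that covers 1.

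The other ligands gave no interval off 1. For gdf10a, a relative of bmp3, the 13.3 FPKM in cyproconazole and 15.9 FPKM in the control made it the second most abundant ligand in each library, with a read ratio of 1.03 (0.905 to 1.17). Its paralog gdf10b had a ratio of 1.06 (0.752 to 1.51), and gdf11, known in mice for patterning along the body axis, had 1.11 (0.776 to 1.59). The activin subunit genes inhbaa and inhbb had ratios of 0.874 (0.703 to 1.09) and 1.04 (0.905 to 1.19). Below the minimum of reads were bmp15, an oocyte factor, with 3 and 3 reads, bmp10, a heart factor, with 13 and 9, bmp8a with 16 and 16, inhbab with 24 and 23, and gdf3, a maternal factor of the early zebrafish embryo, with 14 and 20 in cyproconazole and control. The intervals of these low ligands all cover 1.

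By summed reads the Bmp ligands, leaving out the Gdf genes, had 2507 reads in cyproconazole and 2051 in the control, a ratio of 1.06 (1.0019 to 1.13) whose lower bound is just above 1. The 4 Tgf-beta genes had 1965 and 1918 reads (0.891, 0.836 to 0.949), and 1804 and 1678 without tgfb2 (0.935, 0.874 to 0.999). The intervals of these families did not overlap, but without tgfb2 the nearest bounds were 0.999 and 1.0019. These intervals cover counting error only, and 30.2% of all single genes had intervals off 1. The Bmp ligand sum holds bmp7b, the only ligand with an interval above 1, and was not taken without it. By summed FPKM the order held, with 51.3 FPKM in cyproconazole and 49.3 FPKM in the control for the Bmp ligands and 40.1 and 43.6 FPKM for the Tgf-beta genes. Without tgfb2 the Tgf-beta genes had 34.8 and 34.6 FPKM, so that their lower sum rested on tgfb2 on that scale.

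All 17 receptor genes were compared. On log2(FPKM + 1) 0 were past 1.5-fold, against 3.29% of all genes, and by reads 1, tgfbr1a, was past it, against 5.99%. The read interval was above 1 for 4 and below 1 for 1, against 15.8% and 14.5% of all genes. The highest was tgfbr1a (ENSDARG00000017494), a type I receptor for Tgf-beta, with 2.16 FPKM in cyproconazole and 1.32 FPKM in the control. Its 86 and 48 reads gave a ratio of 1.56 (1.08 to 2.27). The more abundant paralog tgfbr1b had 9.10 FPKM in cyproconazole and 7.37 FPKM in the control, from 421 and 303 reads, and lay on the same side at 1.21 (1.04 to 1.405). The type II receptor tgfbr2 stands in the table under 2 gene IDs. The abundant one (ENSDARG00000034541) had 13.6 FPKM in cyproconazole and 13.7 FPKM in the control (1.01, 0.909 to 1.12), and the scarce one (ENSDARG00000059363) had 0.892 and 0.710 FPKM (1.245, 0.917 to 1.70). The co-receptor tgfbr3, also called betaglycan, had a ratio of 0.936 (0.776 to 1.13).

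Of the Bmp receptors, the type II gene bmpr2b had 6.63 FPKM in cyproconazole and 5.58 FPKM in the control, from 694 and 508 reads (1.19, 1.06 to 1.33). Its paralog bmpr2a had 9.80 and 10.3 FPKM, from 1126 and 1039 reads (0.942, 0.865 to 1.03). These were the only paralogs whose intervals did not overlap, among 14 pairs in which each gene was compared. No such share was taken over paralogs outside the 70 genes, and 30.2% of all single genes had intervals off 1. The type I receptors bmpr1aa, bmpr1ab, bmpr1ba and bmpr1bb had ratios of 1.04, 0.986, 1.101 and 1.09, with intervals that cover 1. The type I receptor acvr1l, known in zebrafish as Alk8 and needed for early Bmp signalling, had 21.7 FPKM in cyproconazole and 23.4 FPKM in the control but a read ratio of 1.02 (0.956 to 1.09).

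The most abundant activin receptors lay on opposite sides of 1 by small amounts. The type II receptor acvr2aa had 24.6 FPKM in cyproconazole and 26.4 FPKM in the control, from 2338 and 2340 reads, a ratio of 0.869 (0.820 to 0.920). The type I receptor acvr1ba had 28.2 and 24.8 FPKM, from 2634 and 2084 reads, a ratio of 1.099 (1.04 to 1.16). The order of these 2 genes by FPKM therefore differed, with acvr1ba the most abundant receptor in cyproconazole and acvr2aa in the control. The remaining genes with the acvr prefix, acvr1bb, acvr2b and the vessel receptor acvrl1, had ratios of 1.08, 1.23 and 1.06 with intervals that cover 1.

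Among the 10 Smads, 4 had read intervals above 1 (smad1, smad9, smad6 and smad7) and 1, smad2, had an interval below 1, against 15.8% and 14.5% of all genes. The largest read ratio of the 60 genes was that of smad9 (ENSDARG00000021938), a receptor-regulated Smad of the Bmp branch. It had 8.44 FPKM in the cyproconazole library and 5.98 FPKM in the control, from 382 and 210 reads, a ratio of 1.58 (1.33 to 1.88). On the log2(FPKM + 1) scale its difference of 0.44 was close to the 0.45 of tgfbr1a, and neither reached 1.5-fold. The other Bmp-branch genes were closer to 1: smad1 had 16.4 FPKM in cyproconazole and 14.3 FPKM in the control (1.13, 1.04 to 1.23), and smad5 had 16.1 and 15.3 FPKM (1.09, 0.989 to 1.20). In the Tgf-beta branch, smad2 had 14.0 FPKM in cyproconazole and 18.9 FPKM in the control, and 962 and 940 reads (0.890, 0.812 to 0.974). For smad3a and smad3b the ratios were 0.951 (0.873 to 1.04) and 1.03 (0.878 to 1.22). The shared partner smad4 had 6.87 and 5.66 FPKM (1.12, 0.924 to 1.36).

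Summed over genes, smad1, smad5 and smad9 had 2527 reads in cyproconazole and 1885 in the control, a ratio of 1.17 (1.097 to 1.24). The genes smad2, smad3a and smad3b had 2390 and 2221 reads, a ratio of 0.935 (0.883 to 0.991). The intervals, which cover counting error only, did not overlap, and without smad9 the Bmp-branch ratio was 1.11 (1.04 to 1.19). The Tgf-beta-branch sum was not taken without smad2. Its other genes, smad3a and smad3b, had intervals that cover 1 (ratios of 0.951 and 1.03). Of all single genes, 30.2% had intervals off 1. In FPKM, the sum of the Bmp-branch genes was 1.51 times that of the Tgf-beta-branch genes in cyproconazole and 1.12 times in the control. The most abundant Smad by FPKM was smad1 in cyproconazole and smad2 in the control. Both statements include the FPKM of smad2, whose log2 FPKM ratio (-0.43) was further from 0 than its log2 read ratio (-0.17). Of the 3 inhibitory Smads, 2 had intervals above 1, against 15.8% of all genes. The gene smad7, an inhibitor of both branches, had 11.0 FPKM in cyproconazole and 8.47 FPKM in the control, from 431 and 297 reads (1.26, 1.09 to 1.47). Its relative smad6, which acts mainly on the Bmp branch, had 12.6 and 10.7 FPKM (1.18, 1.05 to 1.33), and smad6a had 9.22 and 9.67 FPKM (0.946, 0.842 to 1.06).

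**Figure D3:**
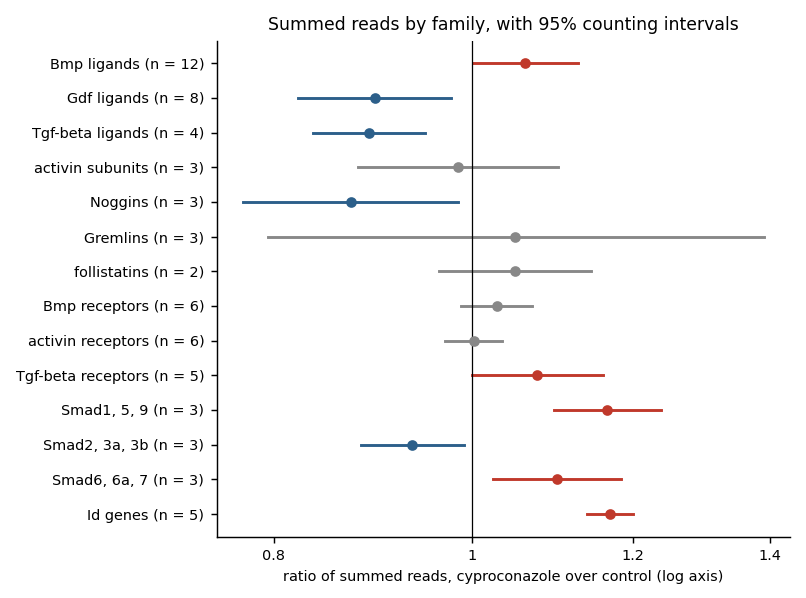
Ratio of summed reads (log axis, cyproconazole over control) for 14 families of the 70 genes, with n the number of genes and bars for the 95% counting interval, coloured red above 1, blue below 1 and grey where it covers 1. Receptor families follow the symbol prefix (bmpr, acvr or tgfbr) and not the ligand bound, so acvr1l and acvrl1 are counted with the activin receptors. The Id genes and the Smads of the Bmp branch have the highest ratios, both 1.17, and the Noggins have the lowest, 0.872; the bounds of the Bmp ligands (1.0019) and the Tgf-beta receptors (1.0004) are just above 1.

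Among the 8 secreted inhibitors compared only nog3 had an interval off 1, below it. Of all genes, 14.5% had intervals below 1 and 30.2% had intervals off 1. Noggins bind Bmp ligands and block them, and nog3 (ENSDARG00000053528) had 7.78 FPKM in the cyproconazole library and 9.61 FPKM in the control. Its 287 and 310 reads gave a ratio of 0.805 (0.683 to 0.948). The ratio was 0.952 (0.778 to 1.17) for nog2, with 4.34 and 4.57 FPKM, and 1.04 (0.651 to 1.66) for nog1, with 1.78 and 1.77 FPKM. The 3 Noggins together had 538 reads in cyproconazole and 536 in the control (0.872, 0.773 to 0.985). That sum was not taken without nog3, and the intervals of nog1 and nog2 cover 1. As for gdf5, the cartilage markers were lower in the same library, and their part in the nog3 value was not tested.

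The follistatins, which bind activin, had 11.4 FPKM in cyproconazole and 11.3 FPKM in the control for fsta (1.001, 0.902 to 1.11) and 8.11 and 6.87 FPKM for fstb (1.16, 0.994 to 1.35). The Bmp-binding modulator bmper had 9.30 and 9.15 FPKM (0.976, 0.861 to 1.11). The Gremlin genes, also Bmp antagonists, were scarce. For grem2a there were 39 reads in cyproconazole and 42 in the control (0.807, 0.508 to 1.28), for grem2b 63 and 45 (1.22, 0.817 to 1.83) and for grem1a 14 and 9 (1.35, 0.545 to 3.54). For the Chordin-like gene chrdl2 there were 11 and 17 reads (0.563, 0.238 to 1.27). Chordin itself, the main early Bmp antagonist, stands in the table under its older symbol chd and is not among the 70 genes; it had 73 and 62 reads (1.02, 0.720 to 1.46).

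The Id genes encode proteins that block helix-loop-helix transcription factors, and id1, id2a and id3 were the most abundant of the 70 genes in both libraries. The gene id1 (ENSDARG00000040764) had 362 FPKM in the cyproconazole library and 293 FPKM in the control, 66.1% and 63.9% of the FPKM of the 5 Id genes. Its 7720 and 5483 reads gave a ratio of 1.22 (1.18 to 1.27). The ratio was 1.15 (1.05 to 1.26) for id3, with 42.8 FPKM in cyproconazole and 36.5 FPKM in the control, and 1.101 (1.05 to 1.16) for id2a, with 105 and 92.8 FPKM. The other two covered 1, with 1.06 (0.940 to 1.19) for id4, at 23.4 and 21.6 FPKM, and 0.987 (0.826 to 1.18) for id2b, at 14.1 and 14.3 FPKM. Summed, the Id genes had 13247 reads in cyproconazole and 9852 in the control (1.17, 1.14 to 1.20), and the sum without id1 had a ratio of 1.0996 (1.06 to 1.14). None of the 5 was past 1.5-fold on log2(FPKM + 1), against 3.29% of all genes. The interval lay above 1 for 3 of the 5, against 15.8% of all genes.

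**Figure D4:**
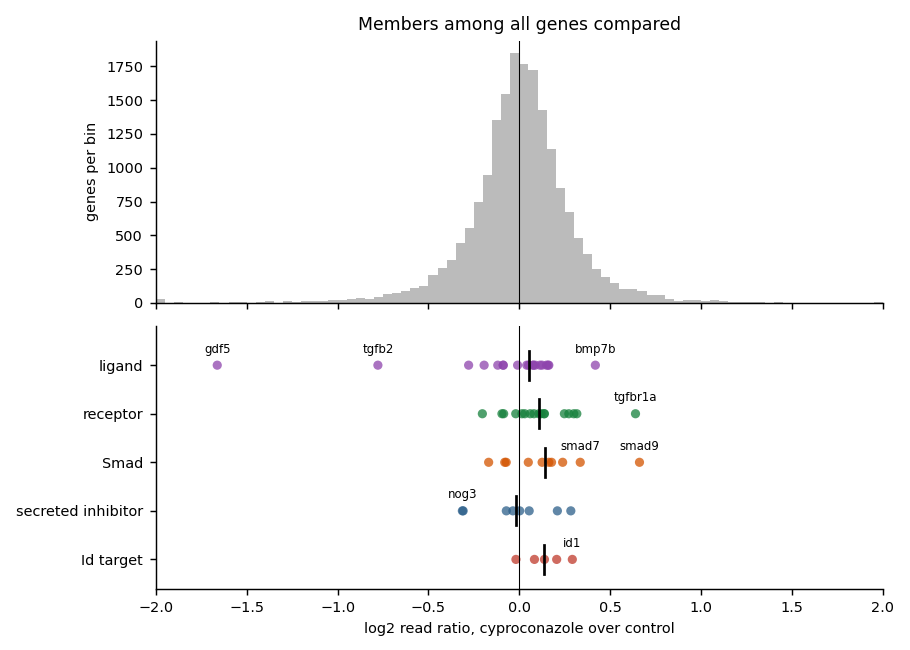
Upper panel: number of genes per bin of the log2 read ratio (cyproconazole over control) for all genes compared, with genes beyond the axis counted in the end bins. Lower panel: the genes compared by role on the same axis, 1 point per gene, with a black bar at the median of each role; gdf5 and tgfb2 lie far to the left, and the medians run from -0.02 for secreted inhibitors to 0.14 for Smads and Id genes.

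Other targets of the pathway were set beside the Id genes. Of 15 further Bmp targets compared, 7 had intervals above 1 and 0 below 1, against 15.8% and 14.5% of all genes, with ratios of 0.934 to 1.67 and a median log2 read ratio of 0.21. None was past 1.5-fold on log2(FPKM + 1), against 3.29% of all genes. The homeobox gene msx2a had 3.23 FPKM in cyproconazole and 1.96 FPKM in the control (1.67, 1.17 to 2.40), the transcription factor gene atoh8 had 12.6 and 9.18 FPKM (1.36, 1.20 to 1.55), and msx3 had 16.7 and 13.6 FPKM (1.22, 1.09 to 1.36). The early ventral gene vox had 13 reads in cyproconazole and 1 in the control (11.3, 1.70 to 480), below the minimum of reads. Markers of cells that use the pathway stood as follows in the same libraries: of 6 blood vessel markers, 2 had intervals above 1, with ratios of 0.99954 to 1.20 and summed FPKM of 45.6 in cyproconazole and 40.3 in the control, and all 5 red blood cell markers had intervals above 1, with ratios of 1.23 to 3.77. Of 7 heart markers, 3 had intervals above 1 and 2 below 1, with ratios of 0.789 to 2.03 and summed FPKM of 98.2 and 99.7. Of 7 photoreceptor markers, 1 had an interval above 1 and 6 below 1, with ratios of 0.386 to 1.17 and summed FPKM of 518 and 823. Their part in the values of the Id genes, the Smads and the other targets was not tested.

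Tgf-beta targets lay on both sides of 1. Of 20 compared, 2 were 1.5-fold or more higher and 3 that much lower on log2(FPKM + 1), and by reads 6 intervals lay above 1 and 8 below 1. Over all genes 1.58% and 1.71% were past 1.5-fold, and 15.8% and 14.5% had intervals above and below 1. The highest was junbb, a transcription factor of the early response, with 26.8 FPKM in cyproconazole and 13.8 FPKM in the control (1.89, 1.68 to 2.13). The 3 lower on log2(FPKM + 1) were the matrix genes postna, with 12.8 and 21.6 FPKM (0.524, 0.484 to 0.568), and col1a1a, with 436 and 701 FPKM (0.787, 0.779 to 0.796), and the matricellular gene ccn2b, with 3.27 and 5.58 FPKM (0.490, 0.406 to 0.589). By reads col1a1a was not past 1.5-fold, and acta2 had a lower read ratio, 0.701 (0.640 to 0.767). The cell-cycle inhibitor gene cdkn1a was the other gene past 1.5-fold, with 70 and 34 reads (1.79, 1.17 to 2.78). In the same libraries 4 of 7 bone markers had intervals below 1, with summed FPKM of 48.6 and 120.0, and their part in these values was not tested.

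Regulators and other ligands outside the 70 genes were counted in the same way. The next counts, over 96 genes, also include the 15 Bmp targets and 20 Tgf-beta targets given above. Over 96 other pathway genes compared, 4 were 1.5-fold or more higher and 5 that much lower on log2(FPKM + 1), against 1.58% and 1.71% of all genes, with a median of 0.06. By reads 24 intervals lay above 1 and 20 below 1, against 15.8% and 14.5% of all genes. Among membrane regulators, the Tgf-beta co-receptor cd109 had 0.9987 FPKM in cyproconazole and 2.49 FPKM in the control, from 126 and 265 reads (0.413, 0.332 to 0.513), and the Bmp pseudoreceptor bambia had 26.1 and 20.0 FPKM (1.29, 1.17 to 1.43). The repulsive guidance molecule gene rgmd had a ratio of 1.285 (1.19 to 1.39) and neo1a, a receptor for such molecules, a ratio of 0.863 (0.811 to 0.919). Among intracellular regulators, the adaptor gene tab1 had 8.11 and 4.30 FPKM (1.55, 1.26 to 1.91), the Smad repressor skib 1.27 (1.14 to 1.40) and the repressor tgif1 1.19 (1.08 to 1.30), all higher in cyproconazole. The endosomal gene hgs was at 0.956 (0.880 to 1.04).

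Of 16 other extracellular regulators compared, 1 had a read interval above 1 and 5 below 1, against 15.8% and 14.5% of all genes. The activin-binding gene fstl3 had 6.12 FPKM in cyproconazole and 11.0 FPKM in the control, from 161 and 230 reads (0.609, 0.494 to 0.748). The glypican gene gpc3 had the largest log2(FPKM + 1) difference of this list, with 14.4 and 6.55 FPKM, but only 51 and 35 reads (1.27, 0.808 to 2.01). The lowest read ratio among those compared was that of the biglycan gene bgna, with 32 and 52 reads (0.535, 0.333 to 0.847). The Bmp modulators twsg1b and sostdc1b were below the minimum, with 24 reads in cyproconazole and 9 in the control and with 13 and 20. Of 15 genes of ligand processing and storage, 0 were past 1.5-fold on log2(FPKM + 1), against 3.29% of all genes. The integrin gene itgb6, which helps to activate latent Tgf-beta, had the largest difference, with 7.47 and 4.80 FPKM (1.49, 1.30 to 1.72). The protease gene bmp1a, which cleaves Chordin and procollagens, had 14.2 and 17.6 FPKM (0.799, 0.741 to 0.861). Other ligands of the superfamily, among them Nodal and myostatin genes, were scarce, with a summed FPKM of 1.68 and 1.51 over 6 genes.

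FPKM and reads gave the same direction for 53 of the 60 genes and opposite directions for 7. The log2 ratios were within 0.1 of each other for 50 and more than 0.2 apart for 5. The widest gap was that of grem2a, with 0.920 FPKM in cyproconazole and 1.82 FPKM in the control (log2 FPKM ratio -0.98) but a log2 read ratio of -0.31. Its log2(FPKM + 1) difference, -0.55, was just short of 1.5-fold. For bmp6, a ligand known in mammals for the control of iron, the FPKM was 3.00 in cyproconazole and 3.70 in the control against 171 and 141 reads, a ratio of 1.05 (0.839 to 1.33). The others were gdf10a, smad2 and acvr2b. For smad2 the log2 FPKM ratio of -0.43 was further from 0 than the log2 read ratio of -0.17, so its size depends on the scale, and its direction does not. The values of gdf5, tgfb2 and tgfbr1a were within 0.1 on the log2 scale, and that of smad9 was larger by reads (0.66) than by FPKM (0.50).

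**Figure D5:**
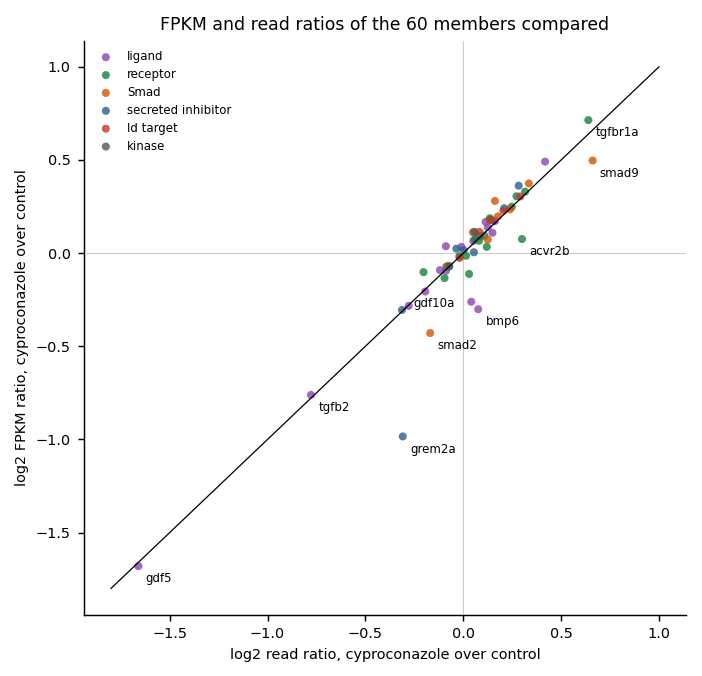
Log2 FPKM ratio against log2 read ratio (both cyproconazole over control) for the 60 genes compared, coloured by role, with the diagonal where both are equal. Most points lie on the diagonal; grem2a, bmp6, gdf10a, smad2 and acvr2b lie more than 0.2 below it.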

How the data were processed

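Poly-A RNA of 1 library per group was compared; no step pools or drops a library. The submitters' processing notes list Cufflinks 2.1.1, HTSeq 0.6.1, Picard 1.29, SAMtools, TopHat2 2.0.4 and the build GRCz10, and give them no role or order. For annotation, strand setting and reads shared by paralogs, nothing is stated in the sources used here. The authors deposited, per the file headers, an FPKM value per library, a mean of counts divided by size factors (a signal over both libraries), and a shrunken log2 ratio, its standard error (also log2), a score (the ratio over its error) and an unadjusted p-value. The authors' score and p-value come from single libraries, so neither served as a test.

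All mean counts were whole multiples of 1 step within 0.01 of it (steps in the ratio 59 to 68 for cyproconazole and control). Of the pairs of whole reads that give each mean, the one whose standard error, at the deposited ratio, matched within 1e-05 was kept, provided that the next pair missed 10 or more times as far. Reads were obtained for 23788 genes (99.9%) and for 70 of the 70 pathway genes. The model behind the standard errors (negative binomial counts with a shrinkage prior) was inferred from the deposited values, and all read counts and intervals rest on it. The recovery was also run on simulated data made with this same model and these steps, so that run cannot check the model itself. Depth was scaled with TMM (M values trimmed by 30%, A values by 5%), using SciPy 1.17.1, pandas 2.3.3, NumPy 2.4.6 and Python 3.11.15; intervals are exact conditional binomial (Clopper-Pearson) at 95%. They cover counting error only, since PCR copies cannot be told from molecules. 555 genes listed at 0 FPKM in a library were left out of comparisons.

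The genes and lists were chosen with earlier results of these data known. Values are given for genes past 1.5-fold, for those whose interval is off 1 with a ratio past 1.25-fold, for the 3 most abundant of each role, the Id genes, a few axis and joint genes and up to 4 genes per other list; others were named after their values were seen. Current symbols were found for 21800 gene IDs.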

Additional observations from a re-analysis of the deposited data

How the results depend on the processing

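No paired analysis was possible because a group holds a single library, which also cannot be left out. The medians of the pathway genes (0.03 to 0.08) and of each role were set against the typical half-width of a single gene's counting interval. They moved by less than that in every alternative run. That width is not the counting error of a median over several genes, so it is a loose limit. The receptor median went from 0.06 to 0.108 by reads with TMM. The medians of the ligands and of the secreted inhibitors lie near 0 and took either sign. Of 233 alternative values for 30 named genes, 216 stayed within counting error and 17 did not. Runs that changed only the minimum of reads cannot move a single gene, so their values are among the 216 by construction. Centring on the median gene shifts each gene by the same 0.021, which is within the counting interval of each named gene. The read scalings differ from each other only by a small constant, so they are not separate checks. The 17 include gdf5, whose -1.20 became -0.575 with 5 added and -1.66 by reads. Of genes past 1.5-fold, only gdf5 and tgfb2, 0 changed sign. Some smaller differences did, such as gdf10a (-0.244, and 0.0408 by reads with TMM) and acvr1l (-0.107 and 0.0297). Counts past 1.5-fold moved more. Listed here are counts more than 1.5 times above or below the main count, or changed from or to 0. Smaller changes are left out, such as 3 lower pathway genes with 0.1 added. For all genes, 295 higher and 318 lower became 596 and 620 with 0.1 added to each FPKM, 69 and 126 with 5 added, by reads 533 and 582 (TMM), 524 and 588 (size factors) and 537 and 573 (total reads), 50 and 83 at 2-fold, and 2934 and 2698 by intervals off 1; at least 200 reads left 172 higher. For the pathway genes, 0 higher and 2 lower became 1 higher with 0.1 added, 0 lower with 5 added, 2 higher with each read scaling, 1 lower at 2-fold, and 12 and 5 by intervals off 1. For other pathway genes, 4 higher and 5 lower became 7 higher with 0.1 added, 2 and 1 with 5 added, 2 higher with at least 200 reads, 1 and 0 at 2-fold, and 24 and 20 by intervals off 1. A larger added value draws the ratios of genes with low FPKM toward 1, from either side, by construction. The cause was not tested otherwise. Genes with few reads limit the comparison: over the 60 genes the upper interval bound was 1.07 to 2.55 times the lower.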

Other observations

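The reference table gives a current symbol of the same families to 12 further genes that the deposited table lists under clone names, older symbols or none. They were not among the 70 genes, and these values were picked out after they were seen. The gene LOC100332902, with the current symbol INHBB of an activin subunit, had 3.89 FPKM in the cyproconazole library and 1.89 FPKM in the control, from 70 and 28 reads, a ratio of 2.17 (1.38 to 3.50). The gene LOC559723, with the current symbol tgfb5, had 41 reads in cyproconazole and 18 in the control (1.98, 1.11 to 3.66). A gene listed under a clone name, with the current symbol SMAD4, had 8.46 and 7.12 FPKM (1.17, 1.03 to 1.34), close to the ratio of the gene listed as smad4. The other 9 of the 12 had intervals that cover 1, and 30.2% of all genes compared had intervals off 1. The symbol bmpr1bb now belongs to the gene ENSDARG00000102742, which had 4.80 FPKM in cyproconazole and 3.80 FPKM in the control (1.16, 0.879 to 1.53), close to the value of the gene listed under that symbol.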
